A study of Homo sapiens with 12 samples.

Results

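The late response of a leukemia cell line to a glucocorticoid was measured as 3 arrays of dexamethasone-treated cells against 3 arrays of carrier-treated cells, all taken at 24 h. These are 6 of the 12 arrays in the series, chosen by time and treatment, and their expression was described across all genes. The cells were CCRF-CEM-C7H2, a glucocorticoid-sensitive subclone of the human line CCRF-CEM, which was grown from a T-cell acute lymphoblastic leukemia, so every value comes from 1 clone. The treated group received 100 nM dexamethasone, a synthetic glucocorticoid, and the control group 0.1% ethanol, the carrier alone. Each group held 1 array from each of experiments 1, 2 and 3, and the dexamethasone and ethanol arrays of an experiment were compared as a pair. The other 6 arrays, of the same treatments at 6 h, were used only to ask which late changes differed from the early ones. The series as a whole was made to find primary transcripts of microRNAs that a glucocorticoid regulates, which is why host transcripts of microRNAs are described beside the other genes.

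Glucocorticoids enter the cell and bind the glucocorticoid receptor, a transcription factor that then moves into the nucleus, raises some genes and lowers others. In malignant lymphoid blasts this leads to arrest in G1 and to death by apoptosis, a process that takes many hours, so RNA from late times holds direct targets of the receptor together with changes that follow from them. The marker genes set for this comparison were BCL2L11, MYC and HES1. BCL2L11 encodes the death inducer BIM, MYC drives ribosome production and cell growth, and HES1 is a transcriptional repressor downstream of NOTCH1.

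Values are deposited log2 GCRMA levels of Affymetrix probe sets, on which a difference of 1 is a 2-fold change. A log2 of 4 was taken as the floor of measurement, and an array had from 22549 to 22941 probe sets (41.3 to 42.0%) at or above it. Arrays of the same group correlated at a Pearson's r of 0.991 or more across tested probe sets. The label of the cells was checked against markers: 7 of 7 T-cell markers were measured, at a mean level of 10.64 to 10.73 with ethanol and 10.84 to 10.88 with dexamethasone. All 5 myeloid markers with a probe set and all 4 of erythroid cells and platelets lay below 4 in both groups. Of 5 B-cell markers with a probe set, CD79A, a B-cell receptor subunit, stood at 10.2 with ethanol and rose by 1.55 ± 0.07 (limma's SE). CD79B (6.94 with ethanol, 7.20 with dexamethasone) and EBF1 (3.89 and 4.15) were not called, and MS4A1 and BLNK lay below 4 in both groups. Of 5 natural killer markers KLRD1 rose from 2.03 to 6.11 and NKG7 from 7.52 to 8.46, while NCAM1, GNLY and NCR1 stayed below 4. Of 5 epithelial markers EPCAM stood at 10.7 with ethanol and 10.2 with dexamethasone and KRT8 at 4.78 and 4.77, with the other 3 below 4. Of 6 stromal and endothelial markers VIM (14.1), PECAM1 (8.63) and COL1A1 (6.20) were measured with ethanol and the other 3 lay below 4. The part of these markers in the results was not tested. In a bulk culture, fewer cells of a type and less RNA per cell cannot be told apart.

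After 24 h the expression of most measured genes had shifted. Of 9870 genes tested with limma's paired fit, 5604 (56.8%) passed an adjusted p of 0.05 (Benjamini-Hochberg), 2654 (26.9%) higher and 2950 (29.9%) lower with dexamethasone. Most of these shifts were small: 77.2% of the called genes changed by less than 2-fold, and the median size of a called change was 0.59 on the log2 scale against a median SE of 0.08. A change of at least 2-fold was called for 648 genes (6.57%) upward and 629 (6.37%) downward, with 100 genes at least 8-fold higher and 10 at least 8-fold lower. The 3 dexamethasone arrays lay wholly above or wholly below the 3 ethanol arrays for 6520 genes (66.1%). Where groups are said below not to overlap, this share is the background. Genes chosen for large changes meet it more readily. Of the genes at least 2-fold higher, 87 were below a log2 of 4 on all ethanol arrays, and 13 of those lower were below 4 on all dexamethasone arrays.

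The split between higher and lower depends on the scale. Poly-A spike-in controls, bacterial transcripts added to the RNA, read 0.338 ± 0.226 higher (SD, n = 3 experiments) on the dexamethasone arrays, and hybridization controls 0.377 ± 0.430 higher. With each array set to its spike-ins, the median probe set moved to -0.34, the share of called probe sets that were higher went from 49.7% to 19.6%, and genes called went to 1069 higher and 4712 lower, 432 and 1251 of them by at least 2-fold. On that scale a gene's own spread hardly entered limma's test. RPL36A and PDCD4, both at 0.38 there, had adjusted p of 0.0506 and 0.0510 (limma). Their SE on the deposited scale were 0.07 and 0.19. Calls on the 2 scales are thus unlike tests, and spike-in counts are indicative only. The part of the spike-in difference in the results was not tested, so counts of members on the spike-in scale are given beside those lists whose direction they change. A list's count is to be read against the 26.9% of all genes called higher and the 29.9% called lower.

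**Figure D1:**
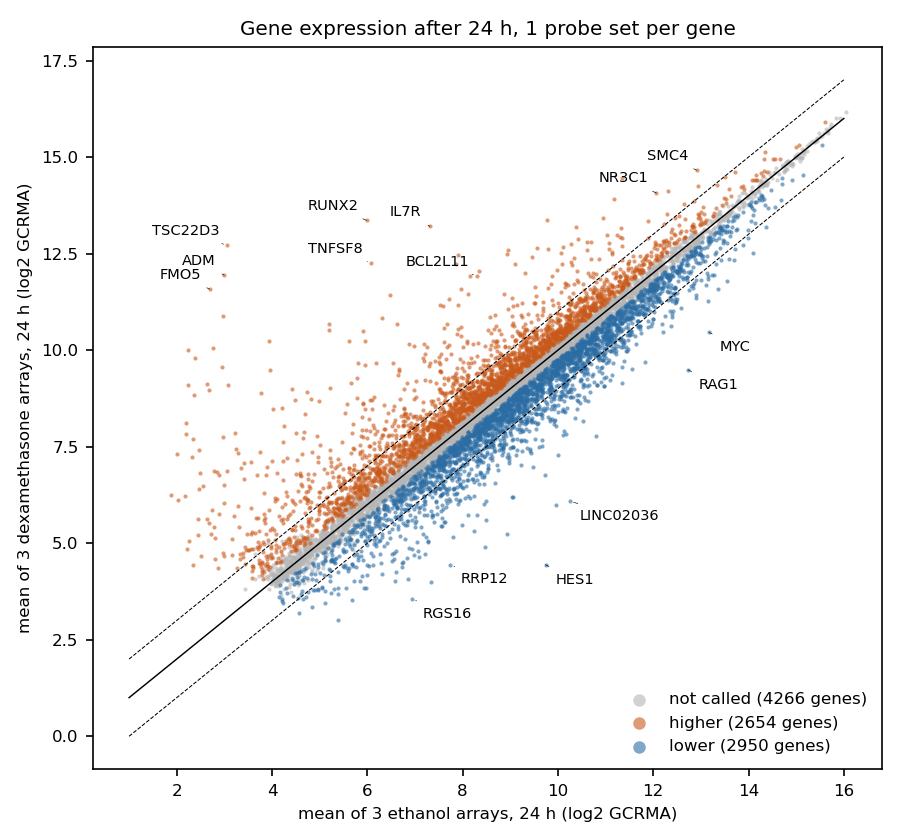
Mean log2 level of each of 9870 genes over the 3 dexamethasone arrays (vertical axis) against the 3 ethanol arrays (horizontal axis) at 24 h, coloured by the call of limma's paired fit, with 2-fold lines dashed. Points fan out upward on the left, where genes near the floor with ethanol reached high levels with dexamethasone, while the largest falls, HES1 among them, start from mid to high levels.

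The 3 marker genes and the receptor were clearly displaced. MYC stood at 13.22, 13.11 and 13.21 on the ethanol arrays of experiments 1, 2 and 3 and at 10.26, 10.54 and 10.58 on the dexamethasone arrays, a 6.59-fold fall (log2 -2.72 ± 0.10, adjusted p = 0.000194 by limma). HES1 went from 9.80, 9.57 and 9.85 to 4.11, 5.27 and 3.94, and its other probe set from a mean of 10.1 to 3.33, so that with dexamethasone it read close to the floor. BCL2L11 rose from 8.21, 8.34 and 8.38 to a mean of 11.9, with its lowest dexamethasone array at 11.76 (12.2-fold), and 6 of 6 of its tested probe sets rose, by 2.44 to 4.02. No dexamethasone array overlapped an ethanol array for any of these genes. NR3C1, the glucocorticoid receptor's own gene, rose from between 12.03 and 12.09 to between 14.04 and 14.10, with 5 of 5 probe sets higher by 1.95 to 2.80.

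The receptor's partners moved in opposite directions. FKBP5, an immunophilin that lowers the receptor's hormone affinity and is itself a classical glucocorticoid target, rose by 3.13 ± 0.08 from levels of 11.24 to 11.50. FKBP4, the immunophilin that takes its place in the receptor complex, fell by 1.77 ± 0.10, from between 10.43 and 10.69 to between 8.70 and 8.95. Over 30 tested genes of nuclear receptor coregulators and receptor chaperones, 8 were higher and 12 lower, 2 and 2 of them by at least 2-fold, with a median of -0.16 against -0.02 over all genes. CARM1, an arginine methyltransferase that serves as a coactivator, was the other member at least 2-fold lower (-1.33 ± 0.09). The count of higher members was 5 without experiment 1 and 5 without experiment 3.

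The 15 largest rises were led by genes whose representative probe set read below the floor with ethanol. For such probe sets the fold is a lower bound, taken from the dexamethasone mean to a log2 of 4. TSC22D3, the gene of the leucine zipper protein GILZ that mediates anti-inflammatory effects of glucocorticoids, read 2.97, 2.97 and 3.25 with ethanol and 12.85, 12.42 and 12.85 with dexamethasone, a rise of at least 8.71 on the log2 scale. ADM, the vasodilator peptide adrenomedullin, reached 11.76, 11.65 and 12.41 from between 2.95 and 3.03 (at least 7.94), and FMO5, a flavin-containing monooxygenase, 11.76, 11.22 and 11.75 (at least 7.58). PFKFB2, which sets the level of the glycolytic activator fructose bisphosphate, reached between 10.61 and 11.04 (at least 6.89). In each of these the dexamethasone arrays lay within 1 log2 unit of each other, far above the ethanol arrays.

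The rest of the 15 largest rises joined regulators with genes better known from other tissues. TP53INP1, a stress-induced protein of autophagy and cell death, went from between 2.53 and 2.73 to 9.24, 8.66 and 9.48 (at least 5.12), and TRIB1, a pseudokinase that directs proteins to degradation, from between 2.10 and 2.67 to between 8.60 and 8.98 (at least 4.85). RUNX2, a transcription factor best known in bone and expressed in early thymocytes, rose by 7.38 ± 0.50. Its ethanol arrays read 6.65, 6.86 and 4.44 and its dexamethasone arrays 13.44, 13.30 and 13.34, so the large error comes from the low ethanol array of experiment 3; all 5 of its probe sets rose, by 2.62 to 7.38. TNFSF8, the ligand of CD30, was already expressed with ethanol, at 6.09, 6.30 and 5.85, and reached 12.36, 12.03 and 12.38. HEMGN, a nuclear protein of blood cell progenitors, rose by 6.29 ± 0.14 from 3.69, 3.87 and 4.27. The muscle protein gene TTN (at least 6.00), the adhesion receptor gene ADGRV1 (at least 5.81), the cysteine dioxygenase gene CDO1 (at least 6.06) and the estrogen-responsive gene GREB1 (at least 5.56) also left the floor on all 3 dexamethasone arrays. So did the non-coding transcripts LINC01120 (at least 5.11) and OR7E47P (at least 4.97), the last a pseudogene of the olfactory receptor family, whose near-identical copies can share probes. The widest spread among dexamethasone arrays in this set was that of OR7E47P, at 9.01, 8.26 and 9.63.

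**Figure D2:**
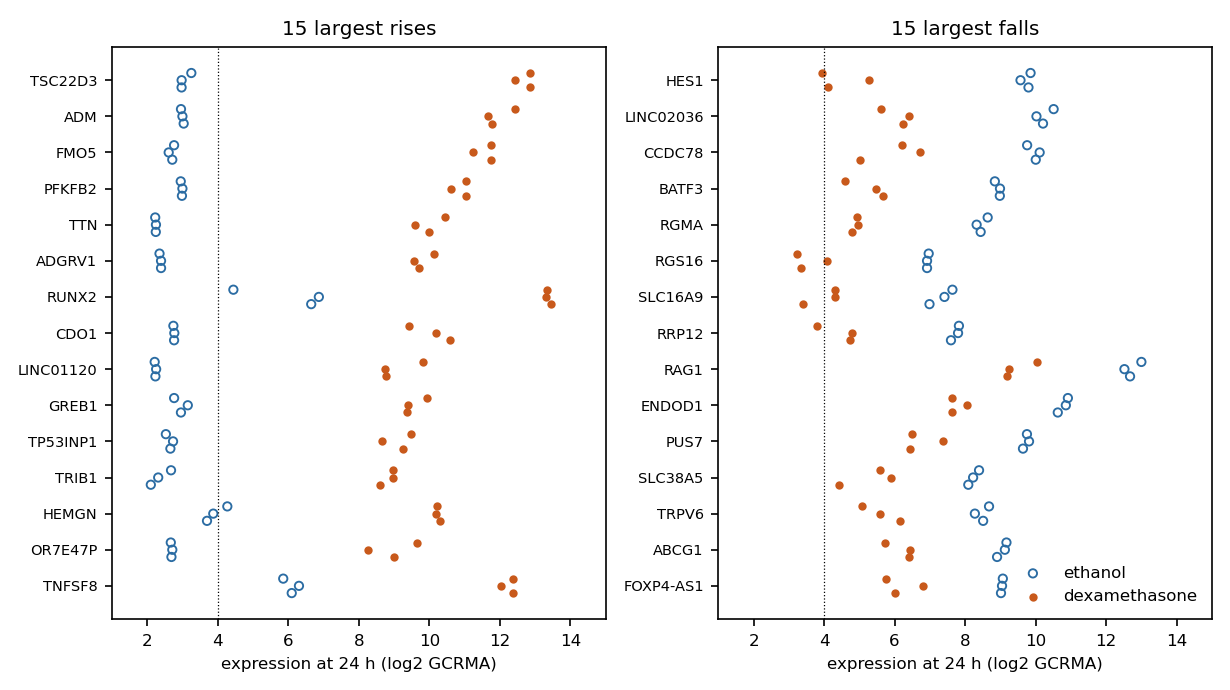
Log2 level on each array for the 15 genes with the largest rise (left) and the 15 with the largest fall (right) at 24 h, with open circles for the 3 ethanol arrays, filled circles for the 3 dexamethasone arrays, experiments 1 to 3 from bottom to top within a gene, and a dotted line at the floor of 4. No gene's groups overlap, which the choice of the largest changes favours (66.1% of all genes have no overlap). Of the rises 12 start below the floor on every ethanol array, and every fall starts above it.

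The 15 largest falls ran from -5.30 to -2.85 and all started from measured levels. After HES1 the deepest were LINC02036, a long non-coding RNA (10.21, 10.02 and 10.51 with ethanol against 6.24, 6.40 and 5.62), and CCDC78, a coiled-coil protein gene (-3.97 ± 0.33). BATF3, a leucine-zipper transcription factor, fell by 3.69 ± 0.20, and RGMA, a repulsive guidance molecule, by 3.58 ± 0.09. RAG1, the recombinase that cuts T-cell receptor genes in immature thymocytes, dropped from 12.68, 12.52 and 13.00 to 9.18, 9.25 and 10.05, the highest starting level among these 15. RGS16, which switches off G-protein signals, reached 3.36, 4.07 and 3.24, at the floor, from 6.92, 6.92 and 6.96. Also among the 15 were the monocarboxylate carrier SLC16A9 (-3.34 ± 0.11), the glutamine transporter SLC38A5 (-2.93 ± 0.26), the calcium channel TRPV6 (-2.88 ± 0.24) and the sterol exporter ABCG1 (-2.88 ± 0.20). RRP12, needed to export ribosomal subunits from the nucleus, fell from 7.60, 7.80 and 7.82 to 4.73, 4.79 and 3.81, and PUS7, a pseudouridine synthase, by 2.97 ± 0.18. ENDOD1, an endonuclease-domain protein, and the antisense transcript FOXP4-AS1 completed the set at -3.03 ± 0.11 and -2.85 ± 0.21.

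The most uniform of the gene groups examined was the machinery that builds ribosomes. A ribosome is assembled in the nucleolus from ribosomal RNA, made by RNA polymerases I and III, and from ribosomal proteins, by a large set of assembly factors that do not stay in the finished particle. Of 48 tested factors of small-subunit assembly (50 listed), 46 were lower and 1 higher, 26 of them lower by at least 2-fold, with a median of -1.04. Of 42 tested large-subunit factors (48 listed), 38 were lower and 0 higher, 25 by at least 2-fold, with a median of -1.24. The median of the large-subunit list was -1.23, -1.09 and -1.33 in experiments 1, 2 and 3. These medians compare with -0.02 over all genes and with 6.37% of all genes at least 2-fold lower. RRP12 was the deepest small-subunit factor, followed by BYSL, which acts late in small-subunit maturation, at 10.14, 10.15 and 10.06 with ethanol and 7.69, 8.21 and 7.80 with dexamethasone (-2.22 ± 0.12). Among large-subunit factors NOP16 went from 10.09, 10.11 and 10.13 to 7.54, 8.08 and 7.82 (-2.30 ± 0.12) and LYAR, a nucleolar growth regulator, fell by 2.15 ± 0.09. The exception among small-subunit factors was RCL1, which processes the pre-ribosomal RNA and rose by 0.49 ± 0.07. Its value on the spike-in scale was 0.15, and 1 of its 2 tested probe sets was called.

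Structural proteins of the cytosolic ribosome did not follow their assembly factors. Of 53 tested genes (of 79 listed; the other 26 had no probe set with that symbol alone), 1 was called higher and 1 lower, and the median was -0.02. RPL36 was the lower member, from 13.52, 13.41 and 13.61 to 13.12, 13.04 and 13.00 (-0.46 ± 0.08), and RPL36A the higher, from 5.26, 5.00 and 5.25 to 5.90, 5.71 and 6.05. Ribosomal protein genes have many processed pseudogenes whose transcripts can share probes, so single members are uncertain. On the spike-in scale 26 of the 53 were lower and 0 higher. With a variance trend in limma the lower members were 10.

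Mitochondrial ribosomal proteins, in contrast to the cytosolic ones, were mostly lower: 53 of 73 tested fell and 1 rose, with 9 at least 2-fold lower and a median of -0.52. The deepest were MRPL12, which also binds the mitochondrial RNA polymerase (10.62, 10.46 and 10.54 against 9.09, 9.37 and 8.90), and MRPL4 (-1.30 ± 0.10). MRPL10, the 1 called higher (0.28 ± 0.08), lost its call without any 1 of the experiments and turned to -0.06 on the spike-in scale. Import channels and chaperones of mitochondria fell alongside, with 32 of 37 lower and 2 higher, 12 by at least 2-fold and a median of -0.82. TRAP1, the mitochondrial HSP90, fell by 1.90 ± 0.13 and TIMM8A, a carrier of the intermembrane space, by 1.70 ± 0.10. CLPP, a matrix protease subunit, and OXA1L, an inner-membrane insertase, were the higher members at 0.40 ± 0.07 and 0.36 ± 0.07, with 0.07 and 0.03 on the spike-in scale; OXA1L lost its call without experiment 1.

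The enzymes that transcribe ribosomal and transfer RNA were mostly lower. Of 24 tested subunits of RNA polymerases I and III, 19 were lower and 2 higher, 10 by at least 2-fold, with a median of -0.78. POLR3G, the form of its subunit found in proliferating and stem cells, went from 9.41, 9.53 and 9.49 to 6.91, 7.47 and 6.55 (-2.50 ± 0.18). Its paralog POLR3GL, which takes the same place in resting and differentiated cells, rose by 0.74 ± 0.07 (10.10, 9.93 and 10.10 against 10.82, 10.59 and 10.94). POLR1B, a core subunit of polymerase I, fell by 1.93 ± 0.08. POLR1H, a small subunit, was the other higher member at 0.27 ± 0.07, with 1 of its 3 tested probe sets called. It turned to -0.07 on the spike-in scale and lost its call without any 1 of the experiments.

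Genes that charge transfer RNA and start translation were mostly lower too. Of 17 tested cytosolic aminoacyl-tRNA synthetases, 15 were lower and 0 higher, with 6 at least 2-fold lower and a median of -0.76; VARS1, for valine, fell by 1.99 ± 0.17 and FARSA, for phenylalanine, by 1.85 ± 0.12. Among 42 initiation and elongation factors, 24 were lower and 4 higher, with a median of -0.32. The repressors of cap-dependent initiation parted here: EIF4EBP1 fell by 1.75 ± 0.14, to 8.13, 8.47 and 7.92, while EIF4EBP2 rose by 0.50 ± 0.08, to 10.16, 10.32 and 10.20, and neither gene's groups overlapped. EIF2B3, of the exchange factor for initiation, fell by 1.57 ± 0.11. EIF3F, EIF4B and PDCD4, an inhibitor of the EIF4A helicase, were higher by 0.45, 0.30 and 0.71. For EIF3F 1 of 2 tested probe sets was called, and for EIF4B 1 of 3. EIF4B turned to -0.04 on the spike-in scale and lost its call without experiment 1 or experiment 3. PDCD4, whose groups overlapped, lost its call without experiment 1 or experiment 2. It read 3.28, 3.34 and 4.09 with ethanol and 3.93, 4.56 and 4.36 with dexamethasone, about the floor, so its change has no exact size.

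Enzymes that make nucleotides, one-carbon units and polyamines formed the next set, the metabolic supply of growing cells. Of 28 tested genes of purine and pyrimidine synthesis 20 were lower and 3 higher, 11 by at least 2-fold, with a median of -0.73. DHODH, the mitochondrial enzyme of pyrimidine synthesis, went from 6.16, 6.49 and 6.30 to 4.16, 4.09 and 4.33, just above the floor, and PFAS, of purine synthesis, from between 10.73 and 10.88 to between 8.94 and 9.37. The higher members belong to salvage and repair-linked supply: RRM2B, the damage-induced reductase subunit (0.50 ± 0.09), the thymidine kinase TK1 (0.38 ± 0.09) and the deoxycytidine kinase DCK (0.24 ± 0.07), of which DCK turned to -0.10 on the spike-in scale, and 1 of the 3 stayed called without experiment 1 or without experiment 2. Of 18 serine and folate enzymes and carriers 12 were lower and 2 higher; SLC19A1, which imports folates and methotrexate, fell by 1.75 ± 0.15 and MTHFD2, a mitochondrial folate enzyme, by 1.49 ± 0.07. AMT, of glycine cleavage, and GGH, which trims folates, were higher by 0.52 and 0.33. The arrays of AMT overlapped between groups, with an adjusted p of 0.224 without the experiment block (limma). AMT lay about the floor, at means of 3.58 with ethanol and 4.10 with dexamethasone, so its change has no exact size. GGH turned to -0.01 on the spike-in scale and lost its call without experiment 1 or experiment 2.

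Polyamine genes were called in both directions. SRM and ODC1, which synthesize spermidine and its precursor putrescine, fell from between 11.45 and 11.65 to between 9.31 and 9.85, and from between 13.30 and 13.41 to between 11.42 and 11.87. SMOX, which oxidizes spermine, rose from between 2.40 and 2.47 to 5.99, 5.45 and 5.47 (at least 1.64), and SAT1, which acetylates polyamines for breakdown or export, rose by 0.51 ± 0.08. SAT2, named for its likeness to SAT1 although its main substrate is thialysine, went from 2.82, 2.84 and 3.22 to 7.69, 7.69 and 7.89 (at least 3.76). OAZ2, an antizyme that directs ODC1 to the proteasome, rose by 0.64 ± 0.07, and ADI1, of methionine salvage, by 1.74 ± 0.07. In all 5 of 17 tested members were higher and 8 lower; without experiment 1 or experiment 2 the lower members were 5, and on the spike-in scale 3 were higher and 11 lower, with SAT1 (0.17) and OAZ2 (0.30) no longer called.

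Transport of amino acids, proteins and RNA across membranes was mostly lower. Among 21 tested amino acid transporters 12 were lower and 3 higher; besides SLC38A5, SLC25A15, the mitochondrial ornithine carrier, fell by 1.67 ± 0.08. The higher members were SLC1A4, for neutral amino acids (1.16 ± 0.08), SLC7A11, the cystine importer (1.07 ± 0.21), and SLC38A2 (0.51 ± 0.07). Of 54 nuclear pore proteins and transport receptors 36 were lower and 1 higher, 8 by at least 2-fold. IPO4, an importin for ribosomal proteins and histones, fell from 8.23, 8.30 and 8.36 to 5.55, 6.16 and 5.52 (-2.55 ± 0.15), and RCC1, the exchange factor of RAN, by 1.38 ± 0.07. IPO8, the higher member (0.25 ± 0.07), turned to -0.08 on the spike-in scale and lost its call without any 1 of the experiments.

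Proteasome and splicing genes shifted less. Of 41 tested proteasome genes 21 were lower and 0 higher, with 1 by at least 2-fold, the assembly chaperone PSMG1 (-1.15 ± 0.09), and a median of -0.25; PSMB5, the catalytic subunit that bortezomib targets, fell by 0.77 ± 0.07. Of 73 splicing factors and hnRNP proteins 34 were lower and 3 higher, with a median of -0.21, and the lower members were 21 without experiment 1 and 21 without experiment 3. PRPF4 and SNRPA1 each fell by 0.80. CELF2, a splicing regulator of T cells, was the member that rose most, from 12.50, 12.71 and 12.69 to 13.83, 13.71 and 13.84, with 7 of 7 probe sets higher; SRSF5 and SF3B4 were higher by 0.48 and 0.30, the last at -0.04 on the spike-in scale and without its call when any 1 experiment was left out.

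**Figure D3:**
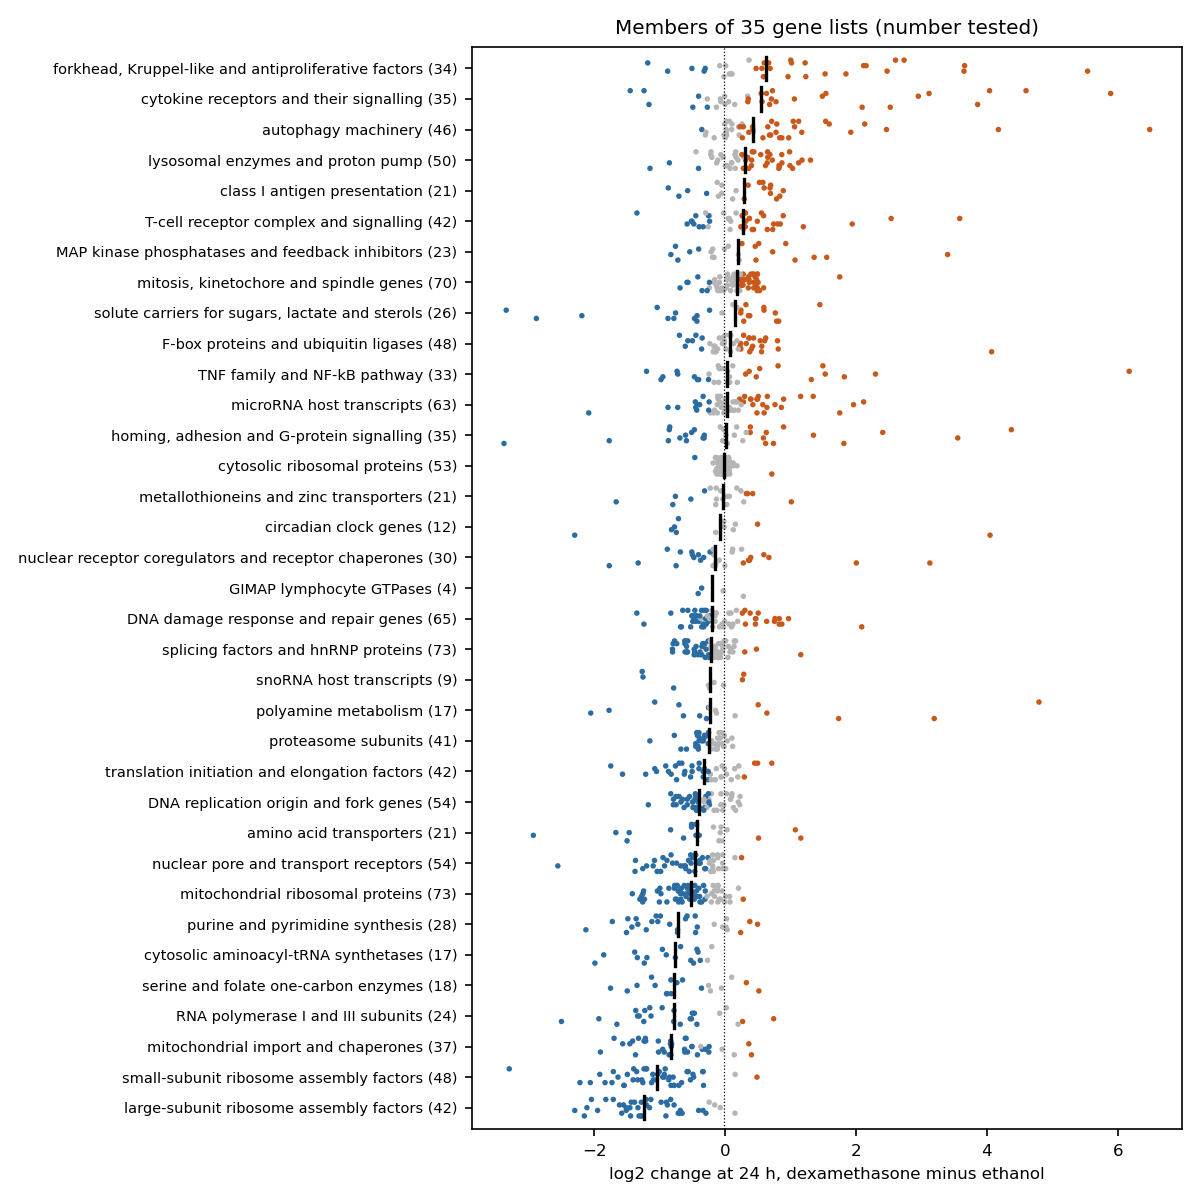
Log2 change at 24 h of every tested member of 35 gene lists, with the number tested in brackets, orange for members called higher, blue for lower and grey for not called, and a black bar at each list's median. The lists of ribosome assembly lie almost wholly on the lower side, the cytosolic ribosomal proteins cluster at 0, and the lists at the top carry long tails of rises.

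A short sequence was counted in the promoters of the assembly and synthesis genes. The palindrome CACGTG is the E-box that MYC and MAX, but also MITF, TFE3, TFEB, USF and clock factors, bind; it was counted in the 300 bases from 250 before to 50 after each RefSeq start on GRCh38.p14, where the strands read alike. It was present in 7.43% of all 27305 promoters in the table, in 11.0% of the 8167 tested genes with a promoter there, and in 21.9% of the 511 at least 2-fold lower genes against 9.60% of the 521 at least 2-fold higher. Among small-subunit assembly factors 18 of 39 promoters (46.2%) held it, among large-subunit factors 11 of 36 (30.6%), among nucleotide synthesis genes 5 of 25 (20.0%), and among mitochondrial import genes 7 of 33 (21.2%), so most promoters of these lists lacked it. Among mitochondrial ribosomal proteins, also mostly lower, 6 of 65 (9.23%) held it, fewer than among all tested genes, and among cytosolic ribosomal proteins 2 of 47 (4.26%). Lysosomal genes, which rose more often than they fell on the deposited scale, also held it often, in 10 of 36 promoters (27.8%), and autophagy genes in 3 of 39 (7.69%). The full palindromic receptor element searched was the half-site AGAACA followed by any 3 bases and its reverse complement. It was in 1 of 27305 promoter windows and in 0 of those of tested genes, so these short windows say nothing of binding at it. The half-site alone, on either strand, was in 9.12% of promoters of tested genes and 14.9% of all. It was in 12 of 39 small-subunit promoters (30.8%) and 4 of 36 large-subunit promoters (11.1%). Among genes at least 2-fold lower the share was 12.7%, and among those at least 2-fold higher 9.40%. The part of half-sites in the results was not tested. A match of letters is not a site in use. To let its place be seen, the 250 bases before the start are shown for 1 gene of each of 4 lists. Each is the deepest called fall with the motif in that stretch among those genes of its list that had a promoter. Genes of 1 chromosome were left out of this choice. Among the called falls of their lists UTP20 ranked 12, DDX31 11, HSPE1 6 and DHODH 1, so deeper falls were passed over in every list but that of DHODH. Bases are in lower case with CACGTG in capitals.
UTP20 (chr12:101279855-101280104, plus strand): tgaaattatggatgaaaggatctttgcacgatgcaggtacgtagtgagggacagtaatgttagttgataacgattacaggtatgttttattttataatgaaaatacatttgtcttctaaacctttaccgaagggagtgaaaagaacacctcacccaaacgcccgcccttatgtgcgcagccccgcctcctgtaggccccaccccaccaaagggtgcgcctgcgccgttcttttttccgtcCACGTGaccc
DDX31 (chr9:132669984-132670233, minus strand): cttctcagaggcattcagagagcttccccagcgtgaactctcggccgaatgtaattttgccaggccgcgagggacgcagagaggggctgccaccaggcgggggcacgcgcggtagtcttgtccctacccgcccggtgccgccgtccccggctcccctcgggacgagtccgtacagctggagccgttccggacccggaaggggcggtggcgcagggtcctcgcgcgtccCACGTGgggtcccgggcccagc
DHODH (chr16:72008494-72008743, plus strand): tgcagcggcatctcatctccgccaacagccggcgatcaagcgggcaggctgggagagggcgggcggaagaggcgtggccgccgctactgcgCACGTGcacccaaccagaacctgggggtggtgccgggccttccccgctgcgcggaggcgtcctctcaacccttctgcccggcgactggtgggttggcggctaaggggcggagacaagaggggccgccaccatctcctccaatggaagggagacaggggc
HSPE1 (chr2:197500129-197500378, plus strand): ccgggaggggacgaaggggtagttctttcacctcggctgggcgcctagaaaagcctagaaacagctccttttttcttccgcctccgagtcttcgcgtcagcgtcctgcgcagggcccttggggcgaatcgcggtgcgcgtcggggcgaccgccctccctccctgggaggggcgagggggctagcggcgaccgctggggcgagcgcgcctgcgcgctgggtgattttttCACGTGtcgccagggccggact
UTP20, a scaffold of the early small-subunit particle, holds the motif 10 bases before its start and went from 7.85, 7.77 and 7.78 to 6.41, 6.71 and 6.06. DDX31, a nucleolar helicase, and HSPE1, the mitochondrial chaperonin cofactor, hold it 22 bases before their starts, DHODH 159 bases before. DDX31 went from 7.65, 7.61 and 7.67 to 6.27, 6.13 and 6.00, and HSPE1 from 13.65, 13.69 and 13.74 to 12.34, 12.47 and 12.17. In these genes, as in DHODH and in 66.1% of all genes, no dexamethasone array overlapped an ethanol array. The genes shown were chosen among called falls, which favours this separation.

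Genes of autophagy and, on the deposited scale only, those of the lysosome were shifted the other way. Autophagy encloses cell contents in a membrane and delivers them to the lysosome, whose enzymes work in an acid interior. Of 46 tested autophagy genes (51 listed) 27 were higher and 1 lower, 11 of them by at least 2-fold higher, with a median of 0.42, and on the spike-in scale 16 were higher and 4 lower. GABARAPL1, a ubiquitin-like protein of the autophagosome membrane, rose from 4.50, 4.86 and 4.85 to 8.80, 8.72 and 9.21 (4.18 ± 0.12), next in this list to TP53INP1. Further members, chosen here after their values were seen, lie along the pathway: the conjugation factor ATG12 rose by 2.47, the initiating kinase ULK1 by 2.14, the transcription factor TFEB by 1.92, and the mitochondrial receptors BNIP3 and BNIP3L by 1.59 and 1.54. ATG3, the enzyme that couples lipids to the family of GABARAPL1, was the lower member at -0.35 ± 0.07 and lost its call without experiment 3.

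Changes of lysosomal genes were mostly under 2-fold. Of 50 tested genes (66 listed) 27 were higher and 3 lower, 4 and 1 by at least 2-fold, with a median of 0.30. On the spike-in scale 12 were higher and 10 lower with a median of -0.04, so the excess of rises in this list belongs to the deposited scale. CTSS, a cathepsin, rose from 5.00, 4.26 and 4.96 to 6.07, 6.02 and 6.05, and NPC2, the cholesterol carrier of the lysosome, from 8.88, 8.81 and 8.98 to 10.02, 9.94 and 10.24. The falling members were the sulfatase ARSB (-1.15 ± 0.21, not called without experiment 3), the legumain gene LGMN (-0.85 ± 0.07) and the cathepsin CTSC (-0.40 ± 0.07).

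Transcription factors and brakes of proliferation gave some of the longest tails. Of 34 tested forkhead, Kruppel-like and antiproliferative genes 21 were higher and 5 lower, 14 and 1 by at least 2-fold, with a median of 0.63; on the spike-in scale 15 were higher and 6 lower. PIK3IP1, which inhibits PI3 kinase, rose from 4.62, 4.02 and 3.22 to 9.49, 9.22 and 9.76, and SESN1, a sestrin that restrains mTORC1, from 6.12, 5.72 and 6.04 to 9.60, 9.43 and 9.82. Others chosen after their values were seen were BTG1 (3.65), DDIT4 (2.74), TXNIP (2.48) and CCNG2 (2.16), all known as targets of forkhead factors, stress or glucocorticoids. KLF16 was the only member at least 2-fold lower (-1.18 ± 0.16), and FOXK1, a forkhead repressor, fell by 0.88 ± 0.07. BTG3, KLF10 and FOXK2 fell by 0.51, 0.32 and 0.30; KLF10 and FOXK2 lost their calls without any 1 of the experiments, and the arrays of KLF10 overlapped between the groups.

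Receptors and signal proteins of lymphocyte cytokines changed widely. Of 35 tested genes (48 listed) 20 were higher and 6 lower, 11 and 3 by at least 2-fold, with a median of 0.55; the spike-in scale gave 13 and 10. IL7R, the interleukin-7 receptor chain that carries survival signals in T cells and thymocytes, rose from 6.88, 6.72 and 8.34 to 13.25, 12.89 and 13.48 (5.89 ± 0.25), and its other tested probe set by 5.93. SOCS1, a feedback inhibitor of the same signals, rose from 6.03, 5.40 and 5.45 to 10.33, 10.19 and 10.16. Chosen after their values were seen, STAT4 (4.04), JAK2 (3.86), JAK1 (2.09), SOCS2 (2.52) and the TGF-beta receptors TGFBR3 (3.12) and TGFBR2 (2.95) rose as well. IL21R fell from 8.11, 8.41 and 7.75 to 7.02, 6.94 and 5.96, IL9R by 1.24 ± 0.08 and, also chosen after its value was seen, IL2RB by 1.16.

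Components of the T-cell receptor and its signalling were divided. Of 42 tested genes 22 were higher and 10 lower, and on the spike-in scale 9 were higher and 13 lower; without experiment 3 the higher members were 14. RCAN1, which inhibits calcineurin, rose from 9.85, 9.65 and 9.83 to 13.36, 13.28 and 13.44, and CD8A, a coreceptor of cytotoxic and immature T cells, from 4.81, 5.19 and 5.00 to 7.40, 7.42 and 7.80. CSK, the kinase that holds LCK inactive, fell from 10.34, 10.40 and 10.30 to 8.75, 8.93 and 9.32, and CD6 by 0.58 ± 0.08.

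Genes of homing and adhesion showed no common direction, with 12 of 35 higher and 13 lower, but large single changes. CD69, which keeps lymphocytes in tissue, rose from 7.90, 8.18 and 7.52 to 12.46, 12.19 and 12.07. CCR9, the gut and thymus homing receptor, read 2.91, 2.96 and 4.80 with ethanol and 6.63, 5.80 and 8.92 with dexamethasone, so experiment 3 was high in both groups and the paired change was 3.56 ± 0.25. ITGA4, the integrin chain that binds VCAM1, fell by 1.77 ± 0.08, with 4 of 4 probe sets lower.

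Feedback inhibitors of MAP kinases gave 10 higher and 5 lower of 23 tested, and 6 and 9 on the spike-in scale. DUSP10, a phosphatase for the stress kinases, rose from between 4.02 and 4.50 to between 7.52 and 7.73, and DUSP6, for ERK, by 1.55 ± 0.11. The lower members were phosphatases too: DUSP7 (-0.83), DUSP2 (-0.76), DUSP3 (-0.72), DUSP14 (-0.54) and DUSP16 (-0.40), the last not called without experiment 2 or without experiment 3. In the TNF and NF-kB list 11 of 33 were higher and 9 lower, and 7 and 15 on the spike-in scale. NFKBIA, the inhibitor of NF-kB, rose from 8.91, 9.15 and 9.05 to 11.30, 11.27 and 11.44. TNFRSF10A, a death receptor for TRAIL, and LTB, lymphotoxin beta, fell by 1.20 ± 0.10 and 0.98 ± 0.07; experiment 3 was lower than the others in both groups for these genes, so the groups overlapped and only the paired comparison separated them.

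Class I antigen presentation gave 11 higher and 4 lower of 21 tested, none by 2-fold, and 3 and 8 on the spike-in scale. The subunits of the peptide transporter parted: TAP1 rose by 0.89 ± 0.07 from 9.36, 9.30 and 9.14, while TAP2 fell by 0.87 ± 0.07 from 9.20, 9.33 and 9.25, and neither gene's groups overlapped. HLA-F rose by 0.84 ± 0.12, a value that near-identical class I genes may share through common probes. The endoplasmic chaperones CALR and CANX were lower at -0.70 and -0.28, as was the transcription factor IRF1 at -0.57; of 4 probe sets of CANX 1 was called higher and 2 lower, and its call was lost without any 1 of the experiments.

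Genes of DNA replication and of mitosis differed in direction on the deposited scale. Of 54 tested genes of replication origins and forks 34 were lower and 0 higher (20 lower without experiment 3), with a median of -0.40 and 1 member at least 2-fold lower, TIPIN, which steadies stalled forks (10.64, 10.69 and 10.49 against 9.30, 9.69 and 9.31). POLD2, a subunit of DNA polymerase delta, fell by 0.83 ± 0.11. Of 70 mitosis, kinetochore and spindle genes 28 were higher and 7 lower, with a median of 0.18. This excess of rises turned over on the spike-in scale, where 1 was higher and 18 lower, and shrank to 14 higher without experiment 1 and 17 without experiment 2. SMC4, a condensin subunit, was the member that stayed called higher on that scale, at 12.91, 12.96 and 12.85 with ethanol and 14.75, 14.55 and 14.68 with dexamethasone; ASPM, a spindle pole protein, rose by 0.59 ± 0.07 on the deposited scale. MIS18A, which loads the centromeric histone, and SKA3, which links kinetochores to microtubules, fell by 0.69 ± 0.09 and 0.58 ± 0.10.

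DNA repair genes were more often lower, 29 of 65 against 15 higher, with 19 lower without experiment 1 and 17 without experiment 3. NBN, of the complex that senses broken ends, rose from 10.65, 10.69 and 10.76 to 12.86, 12.68 and 12.83, and GADD45A by 0.97 ± 0.15. NTHL1, a glycosylase of base excision repair, fell by 1.24 ± 0.13.

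Smaller lists held single large changes. Among 12 tested clock genes, NFIL3, a repressor of the clock's output and a glucocorticoid target, rose from 6.42, 6.67 and 6.76 to 10.65, 10.56 and 10.79, while BHLHE40 fell from 6.99, 7.33 and 6.62 to 4.70, 5.85 and 3.49. PER2, PER3, NR1D2 and DBP were lower by between -0.82 and -0.71, PER3 without a call when experiment 1 or 3 was left out, and CSNK1D was higher by 0.50. Of 48 F-box and ubiquitin ligase genes 19 were higher and 7 lower, and 3 and 17 on the spike-in scale; the higher members were 12 without experiment 1 and 11 without experiment 3. FBXO32, the atrophy-linked ligase, was the large one, rising from between 2.71 and 2.84 to 7.63, 5.77 and 7.18 (at least 2.86), and CUL1 rose by 0.81 ± 0.07. FBXO31 and FBXO22 fell by 0.70 ± 0.10 and 0.61 ± 0.11.

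Carriers of sugars, lactate and sterols were balanced at 12 higher and 11 lower of 26, with 4 and 12 on the spike-in scale and 6 higher without experiment 1 or without experiment 3. SLC37A1 and the glucose carrier SLC2A3 rose by 1.45 ± 0.09 and 0.82 ± 0.08. Of 21 metallothionein and zinc transporter genes 4 were higher (2 without experiment 1 or experiment 3) and 5 lower. All 5 lower ones import zinc or related metals: SLC39A14 fell from between 9.99 and 10.16 to between 8.18 and 8.75, and SLC39A10, SLC39A6, SLC39A3 and SLC39A8 by 0.80, 0.76, 0.52 and 0.31, the last without its call when any 1 experiment was left out. SLC30A1, which exports zinc, rose by 1.01 ± 0.14 and the metallothionein MT1X by 0.42 ± 0.07; SLC39A7 and SLC30A7, at 0.34 and 0.33, lost their calls without experiment 1 or experiment 3, SLC39A7 also without experiment 2, and SLC30A7 read -0.01 on the spike-in scale.

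Host transcripts of small nucleolar RNAs and the GIMAP GTPases of lymphocytes were few. Of 9 tested snoRNA hosts SNHG4, SNHG17 and TAF1D fell by 1.27, 1.25 and 0.78, and SNHG32 and NAP1L4 were higher by 0.29 and 0.27 but read -0.05 and -0.07 on the spike-in scale and had no call without any 1 of the experiments. Of 4 tested GIMAP genes, GIMAP2 and GIMAP7 were lower by 0.41 and 0.36; without the experiment block their adjusted p were 0.0756 and 0.568 (limma), GIMAP2 lost its call without experiment 2 or experiment 3 and GIMAP7 without any 1 experiment, and the arrays of GIMAP7 overlapped between groups.

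Transcripts that carry microRNAs were the purpose of the series. The arrays measure the host or primary transcript, not the mature microRNA. Whether the supply of precursor or of mature strand followed a host was not measured. Of 388 tested genes with a RefSeq hairpin inside their span on the same strand, 114 (29.4%) were higher and 117 (30.2%) lower, shares close to the 26.9% and 29.9% of all genes. From a list of 115 hosts 63 were tested, 22 higher and 11 lower; the spike-in scale gave 8 and 22, and the lower members were 5 without experiment 1 and 5 without experiment 3. For 30 of the 63 the table placed a hairpin inside the gene, 10 of them higher and 6 lower. Mature strands are shown for PPARGC1B, the listed host that fell most, and for listed hosts whose microRNAs share a seed with another listed host, with bases 2 to 8, the seed by which targets are chosen, in capitals.
hsa-miR-15b-5p: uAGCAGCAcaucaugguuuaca
hsa-miR-16-5p: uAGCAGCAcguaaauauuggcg
hsa-miR-15a-5p: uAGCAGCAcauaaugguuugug
hsa-miR-26a-5p: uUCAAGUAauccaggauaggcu
hsa-miR-26b-5p: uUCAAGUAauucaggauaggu
hsa-miR-378a-3p: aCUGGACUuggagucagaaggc
hsa-miR-33b-5p: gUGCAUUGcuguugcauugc
hsa-miR-33a-5p: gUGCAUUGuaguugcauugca
hsa-miR-103a-3p: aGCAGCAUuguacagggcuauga
hsa-miR-107: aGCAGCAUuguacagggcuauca
hsa-miR-25-3p: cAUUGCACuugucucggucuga
hsa-miR-32-5p: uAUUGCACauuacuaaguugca
hsa-miR-128-3p: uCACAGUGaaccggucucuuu

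Hosts that share a seed could be set side by side. SMC4 on chromosome 3, whose introns hold miR-15b (mature strand at chr3:160404607-160404628, GRCh38.p14, plus strand) and a copy of miR-16, rose by 1.75 ± 0.08, and 3 of 3 probe sets rose. DLEU2 on chromosome 13, which holds miR-15a and the other copy of miR-16 with the same seed, rose by 0.43, with differences of 0.44, 0.33 and 0.50 in experiments 1, 2 and 3. The phosphatase genes CTDSP2 and CTDSP1 hold miR-26a and miR-26b, alike in their seed, and rose by 1.16 ± 0.08 (7.81, 7.87 and 8.16 against 9.08, 9.07 and 9.15) and by 0.39. The sterol regulators SREBF1 and SREBF2 hold miR-33b and miR-33a and fell by 0.87 ± 0.14 and 0.43. The pantothenate kinase genes PANK3 and PANK1, whose miR-103a and miR-107 also share a seed, parted, at 0.50 ± 0.09 and -0.39 ± 0.07, and PANK2, with the other copy of miR-103a, was not called (0.18 ± 0.07). ARPP21 and R3HDM1 hold the copies of miR-128, and ARPP21 was higher (0.86 ± 0.10) while R3HDM1 was not called (-0.12 ± 0.07). MCM7, a subunit of the replicative helicase that holds miR-25 and miR-106b, fell by 0.43 ± 0.10 and lost its call without experiment 1 or experiment 3, while TMEM245, whose miR-32 has the seed of miR-25, rose by 0.51 ± 0.07. On the spike-in scale the values of SMC4, CTDSP2 and SREBF1 were 1.41, 0.82 and -1.21.

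Further hosts are given without such a comparison. PPARGC1B, a coactivator of mitochondrial genes that holds miR-378a on chromosome 5 (chr5:149732867-149732888, plus strand), fell from 6.87, 7.10 and 6.84 to 4.76, 5.29 and 4.52 (-2.08 ± 0.12). FTX with miR-374a and DALRD3 with miR-191 were higher by 0.76 and 0.64. Larger changes were found among hosts outside the list, chosen here after their values were seen, such as CPNE4 with miR-5704 (3.29 ± 0.10), FKBP5 with miR-5690 and CELSR3 with miR-4793 (-2.50 ± 0.13). Listed hosts for which the table gave no hairpin were KLF13 (2.12 ± 0.07), RERE (1.35 ± 0.12), ATAD2 (1.96 ± 0.10) and TADA3 (0.90 ± 0.07), all higher, and IARS2 (-0.72), GIT1 (-0.45, not called without experiment 1 or experiment 3) and NUP205 (-0.45), all lower; no microRNA is given for them here.

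**Figure D4:**
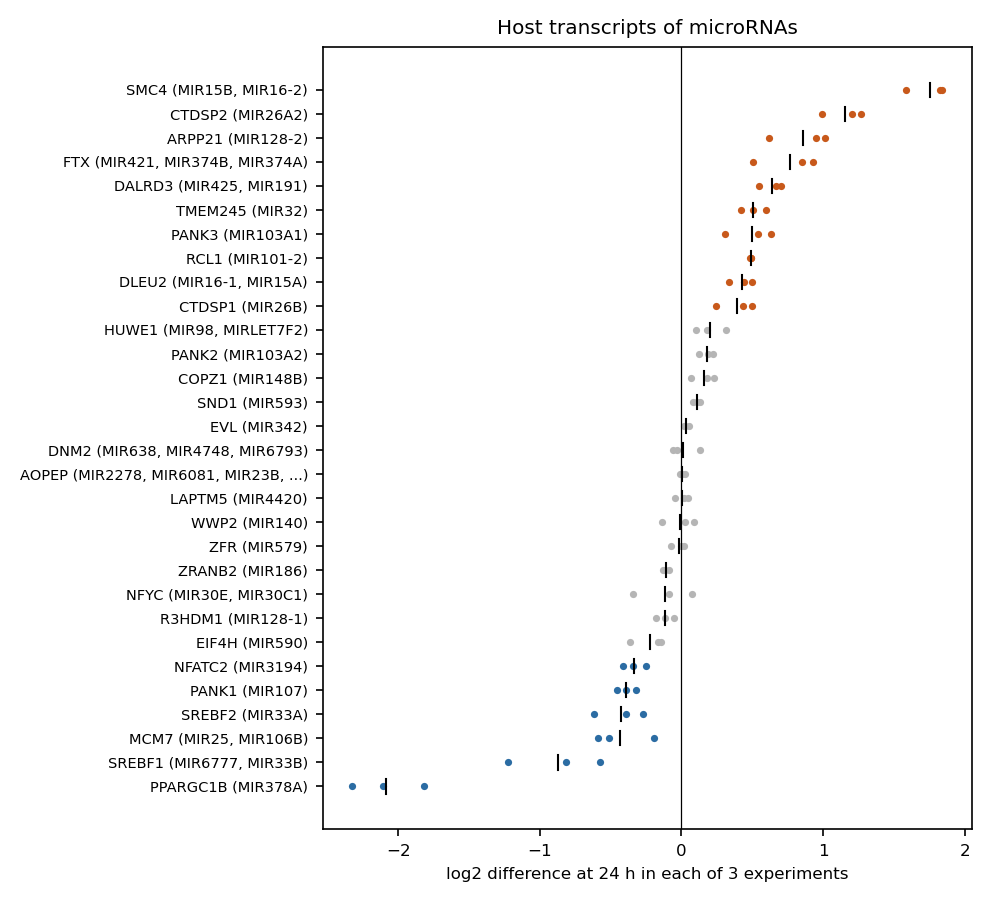
Log2 difference between dexamethasone and ethanol in each of 3 experiments (points) and their mean (black bar) for the 30 listed host genes that the RefSeq table places around a microRNA hairpin, named in brackets, with orange for hosts called higher, blue for lower and grey for not called. SMC4 and CTDSP2 lie above 1 or close to it in every experiment, PPARGC1B below -1, and most hosts lie within 1 log2 unit of 0.

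Most of the large changes at 24 h were not called at 6 h. The response at 24 h differed from that at 6 h for 7882 of 23265 probe sets (33.9%), tested in 1 fit of all 12 arrays with the experiment nested in time, and 1473 (6.33%) were called at 6 h itself. The 6 h arrays carry experiment numbers 0, 1 and 3, and a number shared with the 24 h arrays was not treated as a pair across times. At 6 h the treatments had been scanned in separate batches, so batch and treatment cannot be told apart there, and the difference between times holds that comparison. Of 648 genes at least 2-fold higher at 24 h, 196 were called in the same direction at 6 h, 3 in the opposite one and 449 not at all; for 599 the difference between the times passed, with the larger value at 24 h in 596. Of 629 at least 2-fold lower, 181 were called lower at 6 h, 0 higher and 448 not. For 592 of these the difference passed, all larger at 24 h. Both sets were chosen by their 24 h values, which also enter the difference. The choice itself therefore favours a larger value at 24 h. A call could also take a larger change at 6 h than at 24 h. RGS16 at -0.83 ± 0.18 was not called at 6 h (adjusted p = 0.0707 by limma), while MRPL10 at 0.28 ± 0.08 was called at 24 h. A gene not called at 6 h may thus have changed by then.

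Among the 15 largest rises, 7 were called at 6 h. TSC22D3 stood at 8.65 ± 0.15 on the log2 scale at 6 h against 9.65 at 24 h, TRIB1 at 6.35 against 6.49, RUNX2 at 5.45 against 7.38 and PFKFB2 at 5.31 against 7.92. ADM (3.49), HEMGN (2.14) and TNFSF8 (4.62) were called at 6 h too. FMO5, TTN, ADGRV1, CDO1, LINC01120, GREB1, TP53INP1 and OR7E47P were between 0.04 and 0.66 at 6 h and not called, and the difference to 24 h passed for each (adjusted p of at most 0.000227 by limma). Only for TRIB1 and RUNX2 did the difference between the times not pass (adjusted p = 0.837 and 0.0865 by limma). All 15 of the largest falls, which were chosen by their 24 h values, were deeper at 24 h than at 6 h, and 10 were called at 6 h. RRP12 read 0.00 and SLC38A5 -0.04 at 6 h, before any of their fall, while RGMA (-1.71), HES1 (-1.63) and RAG1 (-1.34) had fallen furthest. BCL2L11 and MYC had reached 1.82 and -0.99 by 6 h.

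**Figure D5:**
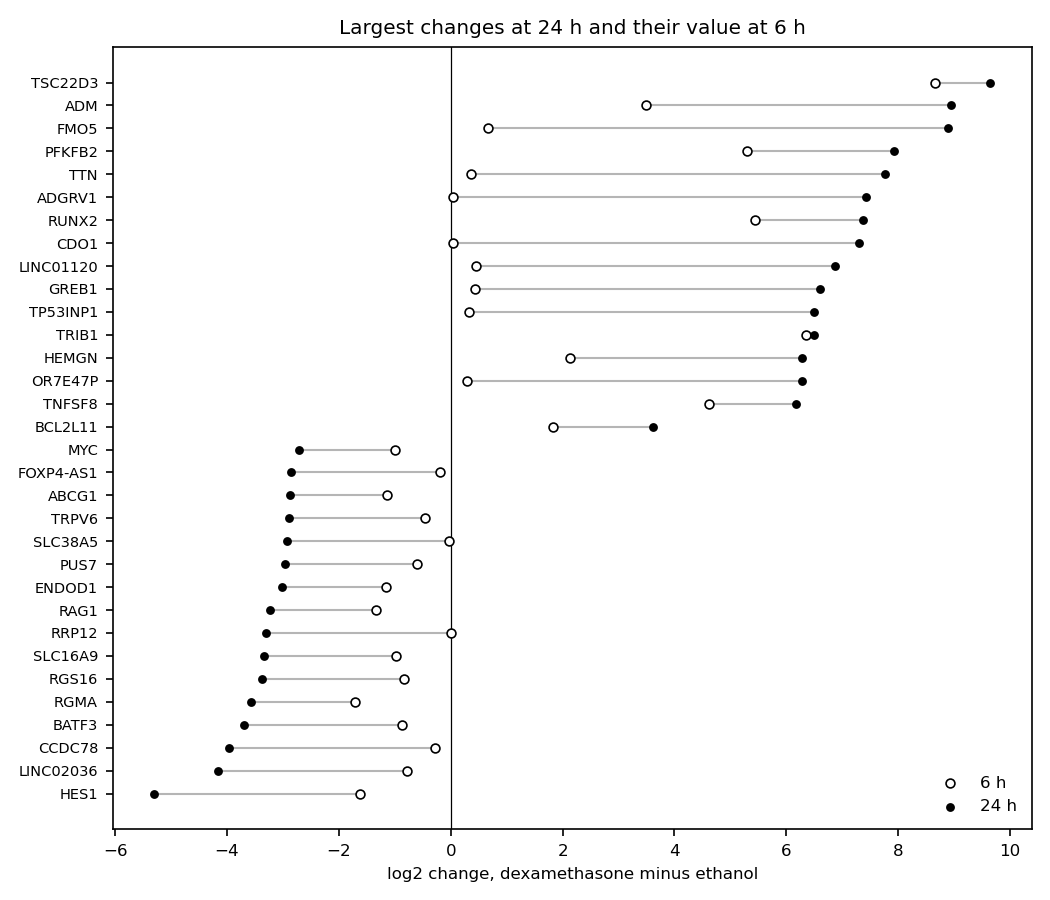
Log2 change with dexamethasone at 6 h (open circles) and at 24 h (filled circles) for the 15 largest rises and 15 largest falls at 24 h and for BCL2L11 and MYC. TSC22D3 and TRIB1 lie close together at both times, FMO5, TTN, ADGRV1 and CDO1 start near 0 at 6 h, and every fall is deeper at 24 h.

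The 3 experiments differed in the size of the response. The median size of the difference over all genes was 0.35, 0.31 and 0.37 in experiments 1, 2 and 3, and over the genes at least 2-fold changed 1.48, 1.31 and 1.53. Experiment 2 thus gave the smallest response, with 604 genes at least 2-fold up and 508 down, against 731 and 653 in experiment 1 and 702 and 761 in experiment 3. The list medians followed: small-subunit assembly factors stood at -1.03, -0.92 and -1.18, mitochondrial ribosomal proteins at -0.53, -0.37 and -0.63, and nucleotide synthesis genes at -0.71, -0.64 and -0.83. Single genes with an unusual starting level in 1 experiment, such as RUNX2, IL7R and CCR9 in experiment 3, are given above with their arrays.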

How the data were processed

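Expression was measured on Affymetrix HG-U133 Plus 2.0 arrays. The authors deposited log2 values, 1 per probe set and array, and the submitters' processing notes name GCRMA in R 2.6; no settings are given in the sources used here. Signal over background and the number of arrays, not read depth, limit precision.

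Of 54675 probe sets, 62 controls were read apart. A probe set was tested if 3 or more of the 6 arrays of 24 h reached a log2 of 4 (22946 did). Symbols came from the platform annotation (41097 probe sets with 1 symbol, 1801 with several, 11777 with none), and the tested probe set of the highest mean stood for its gene. Limma 3.58.1 in R 4.3.3 fitted treatment with the experiment as a block (2 residual degrees of freedom, moderated), and the Benjamini-Hochberg adjustment ran over all tested probe sets. An adjusted p under 0.05 was a call; ± is limma's SE (n = 3 experiments) unless named SD. What the p-values measure is the spread between separate experiments in a single cell line.

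The experiment numbers in the labels pair the arrays: with group means removed, same-numbered dexamethasone and ethanol arrays correlated at r of 0.285, 0.242 and 0.427, and no other such pair exceeded 0.048. Labels place all 6 arrays in 1 scan batch.

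Named are the 15 largest rises and falls that went the same way in all 3 experiments, the markers and NR3C1, in each of 35 lists the 2 largest called rises and falls (6 for microRNA hosts), members behind counts of 5 or fewer, and a few said in the text to be picked by their values; 1 gene the rule names is not reported here. The 35 lists hold 1583 genes, of which 1290 were tested. Members, lists and rules were chosen with earlier results of these data known. Hairpins, mature microRNAs and promoters are RefSeq's on GRCh38.p14. The alternatives were no experiment block, all 12 arrays, other filters (none, or a log2 of 6), 3 other scalings, a variance trend, the gene median over probe sets, and leaving out each experiment.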

Additional observations from a re-analysis of the deposited data

Results flagged for a closer look

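The results below were singled out because the response at 24 h differed from that at 6 h in a test of the difference itself, or because a signal appeared in controls outside the main measurement. All differences are log2 response at 24 h minus at 6 h, and treatments at 6 h lay in separate scan batches, so that batch and treatment cannot be told apart there. The difference passed for 7882 probe sets. The probe sets standing for FMO5, TTN, ADGRV1, CDO1, LINC01120, GREB1, TP53INP1, OR7E47P, ADM, PFKFB2 and TSC22D3 lay below the floor with ethanol, so their differences have no exact size or order. Among genes that were below the floor with ethanol and little changed at 6 h, it was 8.22 for FMO5, 7.40 for TTN, 7.40 for ADGRV1, 7.27 for CDO1, 6.42 for LINC01120, 6.17 for GREB1, 6.16 for TP53INP1 and 6.00 for OR7E47P. It was 5.46 for ADM and 4.15 for HEMGN, which had risen in part by 6 h. For genes called higher at 6 h it was also 2.61 for PFKFB2, 1.55 for TNFSF8, 0.99 for TSC22D3 and 1.79 for BCL2L11.

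The largest falls, chosen by their 24 h values, and MYC were deeper at 24 h than at 6 h. The difference was -3.67 for HES1, -3.69 for CCDC78, -3.37 for LINC02036, -3.30 for RRP12, -2.89 for SLC38A5, -2.82 for BATF3, -2.65 for FOXP4-AS1, -2.55 for RGS16, -2.42 for TRPV6, -2.36 for SLC16A9, -2.36 for PUS7, -1.90 for RAG1, -1.87 for RGMA, -1.87 for ENDOD1, -1.74 for ABCG1 and -1.73 for MYC.

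Spike-in controls were higher on the dexamethasone arrays. The 24 poly-A spike probe sets differed by 0.585, 0.285 and 0.143 in experiments 1, 2 and 3 (mean 0.338), and the 18 hybridization probe sets by 0.238, 0.0337 and 0.860 (mean 0.377), while the median tested probe set differed by 0.0297. The part of these differences in the results was not tested.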

How the results depend on the processing

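The count of called probe sets, 12276, ranged from 9013 to 13156 over the alternatives, and the probe sets called in common kept their direction. Only the 3 other scalings could have changed a direction. The other block, filter and variance settings leave each estimate as it was. All 12276 called probe sets went the same way in all 3 experiments, so leaving out 1 experiment cannot turn them. The paired design carried little of the count: with no replicate block 11408 were called, 11036 of them shared with the paired fit. Leaving out 1 experiment gave 9013 to 10355 probe sets with 1 residual degree of freedom, and the difference between the times gave 5803 to 7242. With no replicate block that difference passed for 5380 probe sets, against 7882 with it. The spike-in scale was the exception in direction: 2585 probe sets and 1069 genes were then higher and 10571 and 4712 lower, with 1251 genes at least 2-fold lower. A gene's own spread hardly entered the test on that scale, so these counts are indicative only. The centring itself lowers every value by the same amount on each array. Small called rises then fell below 0, at -0.0595 for MRPL10, -0.0689 for POLR1H, -0.0424 for EIF4B, -0.0986 for DCK, -0.0121 for GGH, -0.0359 for SF3B4, -0.0844 for IPO8, -0.0515 for SNHG32, -0.0718 for NAP1L4 and -0.0116 for SLC30A7. Of 182 named genes 148 kept direction and call under every alternative that tested them but that scale; leaving out experiment 1, 2 or 3 ended the call of 22, 18 and 22. Of 840 counts of list members under the alternatives 140 moved by over 1.5 times, 42 of them on the spike-in scale. Genes near a log2 of 4 have bounds only, and 3 arrays a group limit what can be called.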
